A study of Mus musculus with 1 sample.

Results

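The 10 genes described here encode the FOXO transcription factors and restraints on growth signalling linked to them: Foxo1, Foxo3, Foxo4, Ddit4, Sesn1, Sesn3, Pik3ip1, Fbxo32, Klf9 and Txnip. They were picked by symbol from the 27998 genes listed for the library, and they were selected on earlier results of these same cells, in which Ddit4 and Fbxo32 stood high in progenitor-like spermatogonia. Levels of these genes by cell class are therefore a description, with no test. All 10 had UMIs (unique molecular identifiers, each counting 1 captured mRNA molecule), from 112 for Foxo4 to 917 for Txnip in the 920 cells kept.

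The data came from 1 library of C57BL/6 wild-type mice at postnatal day 8, the group written as Zscan2+/+ in the study. Testis cells of 3 mice were enriched for spermatogonia by magnetic sorting for the surface protein THY1, unselected cells of the testis suspension were spiked in, and equal numbers of cells per mouse were joined into 1 tube before Chromium 3′ single-cell sequencing. The study set out to compare these cells with those of a Zscan2 knockout line, whose library was not analysed here. Because the mice were pooled, there are no replicates, the shares of cell types follow from the sorting and the added cells, and every interval below is an exact 95% interval that covers counting error only.

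FOXO proteins are transcription factors that are held out of the nucleus when insulin-like growth factors activate PI3K and AKT. The same PI3K and AKT signal switches on mTORC1, the kinase complex that drives protein synthesis and cell growth, so a cell with low PI3K activity tends to have active FOXO and restrained mTORC1. In the mouse testis FOXO1 is known as a factor of undifferentiated spermatogonia that is needed for their maintenance, and mTORC1 activity is known to favour their differentiation. Among the 10 genes, Ddit4 (also called Redd1) encodes a stress-induced inhibitor of mTORC1 that acts through the TSC complex. Sesn1 and Sesn3 encode sestrins, which also restrain mTORC1. Pik3ip1 encodes a membrane protein that inhibits PI3K itself. Fbxo32 (atrogin-1) encodes a ubiquitin ligase subunit and is a FOXO target of wasting muscle, Klf9 encodes a Krüppel-like factor induced by glucocorticoids, and Txnip encodes a thioredoxin-binding protein that limits glucose uptake.

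The promoters of Ddit4, Txnip and Klf9 are shown because Ddit4 had the largest difference between germ cell classes and because Txnip and Klf9 were the members with a FOXO motif. RefSeq sequences of GRCm38 (mm10) covered 8 of the 10 genes, and Fbxo32 and Foxo4 were not matched. Sequences run 5′ to 3′ on the strand of the gene and end where the annotated gene begins, with capitals for the motifs found.
Ddit4 (minus strand, chr10:59951835-59952020): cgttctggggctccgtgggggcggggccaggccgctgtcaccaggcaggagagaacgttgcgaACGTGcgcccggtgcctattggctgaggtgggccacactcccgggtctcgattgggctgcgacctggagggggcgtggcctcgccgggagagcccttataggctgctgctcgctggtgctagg
Txnip (plus strand, chr3:96557707-96557956): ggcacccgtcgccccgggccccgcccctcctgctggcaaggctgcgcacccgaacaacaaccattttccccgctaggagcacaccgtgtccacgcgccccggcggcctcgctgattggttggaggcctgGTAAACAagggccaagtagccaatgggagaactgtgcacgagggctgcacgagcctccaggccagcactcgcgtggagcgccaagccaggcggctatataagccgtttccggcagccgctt
Klf9 (plus strand, chr19:23140976-23141225): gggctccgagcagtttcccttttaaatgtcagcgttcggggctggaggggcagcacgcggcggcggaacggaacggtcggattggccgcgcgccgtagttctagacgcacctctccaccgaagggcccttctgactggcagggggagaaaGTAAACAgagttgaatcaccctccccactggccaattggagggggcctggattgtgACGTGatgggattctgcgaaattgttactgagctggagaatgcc
The motifs were searched on both strands over the 250 bases before each RefSeq start. For Pik3ip1, Sesn1 and Sesn3 these windows lay wholly inside the annotated gene, so no bases before that gene were searched. The FOXO motif GTAAACA occurred at -121 in Txnip and at -100 in Klf9, and 3.17% of all 32851 RefSeq promoters of that length hold it. The hypoxia response core ACGTG, which is also part of the E-box CACGTG, occurred at -187 in Ddit4 and at -44 in Klf9, against 16.6% of all promoters. Neither the E-box nor the insulin response motif CAAAACA occurred in the members' windows, against 6.02% and 5.56% of all promoters. These matches are descriptions of the sequence only.

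The cells of this library fell into 324 germ cells with a median of 18216.5 UMIs per cell and 596 somatic cells with a median of 8193.5. Germ cells were divided into 112 cells like spermatogonial stem cells (SSC-like), 79 progenitor-like cells and 133 differentiating-like cells, and SSC-like and progenitor-like cells together are called undifferentiated spermatogonia (191 cells). Differentiating-like cells came in a Kit-led cluster of 101 cells and a Ly6k-led cluster of 32 cells, whose first gene was Prss50. Somatic cells comprised 94 peritubular myoid-like, 186 stromal-like, 255 Sertoli-like and 35 macrophage-like cells, plus 26 cells of a cluster left unnamed and called Xcl1-led, whose leading genes were mostly of natural killer and T cells and which also held peritubular myoid markers at 2381 CPM. Levels are UMIs of a gene per 1000000 UMIs of the class (CPM). The progenitor-like cluster needs care, since Hba-a1 and Hbb-bs, hemoglobin genes that came largely from 1 barcode with 10102 hemoglobin UMIs, were among its 10 leading genes beside Neurog3, its single progenitor marker there. Without that barcode neither hemoglobin gene led the cluster, and Ddit4 and Fbxo32 were still among its 10 leading genes. Ddit4 took part in forming both sets of clusters as a variable gene and Fbxo32 in the clustering of all cells, while the other 8 genes took part in neither.

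**Figure D1:**
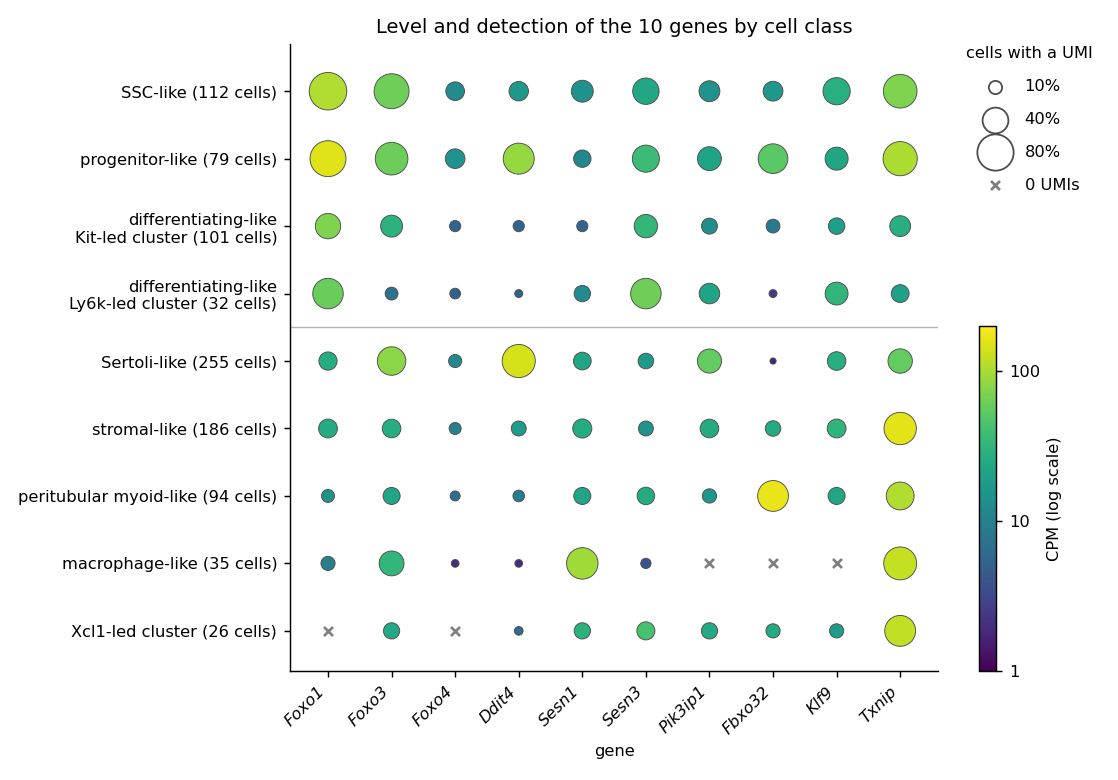
Level and detection of the 10 genes in each cell class. Columns are genes, rows are classes, colour is CPM on a log scale, and the area of a point grows with the share of cells with a UMI. Ddit4 reached 142.9 CPM in Sertoli-like and 85.7 CPM in progenitor-like cells, and Fbxo32 reached 168.8 CPM in peritubular myoid-like and 51.9 CPM in progenitor-like cells.

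Ddit4 and Fbxo32 shared a high level in progenitor-like spermatogonia and parted in somatic cells. Along the germ line Ddit4 was at 16.8 CPM in SSC-like cells (12.0 to 22.7), 85.7 CPM in progenitor-like cells (71.3 to 102.2), 5.57 CPM in the Kit-led cluster (2.24 to 11.5) and 4.92 CPM in the Ly6k-led cluster (0.596 to 17.8). The progenitor-like interval stands apart from the other germ cell intervals, and the SSC-like interval lies just above that of the Kit-led cluster. Among somatic cells the inhibitor was highest in Sertoli-like cells at 142.9 CPM (127.8 to 159.2), the supporting epithelium of the seminiferous tubule, where 66.7% of cells had a UMI. It was at 18.3 CPM in stromal-like, 9.45 CPM in peritubular myoid-like, 6.06 CPM in Xcl1-led and 1.94 CPM in macrophage-like cells, the last with a single UMI in 35 cells. In the 3 Sertoli-like clusters Ddit4 lay between 113.0 and 159.4 CPM, with overlapping intervals. In the 62 germ cells of a shallow cluster, at a median of 3905 UMIs per cell, Ddit4 was at 19.2 CPM (7.06 to 41.9). These cells came from the clustering of all cells and are also counted in the germ cell classes above.

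Fbxo32 took the same order within the germ line, with 16.8 CPM in SSC-like cells (12.0 to 22.7), 51.9 CPM in progenitor-like cells (40.8 to 65.0), 8.75 CPM in the Kit-led cluster (4.37 to 15.7) and 2.46 CPM in the Ly6k-led cluster, the last from 1 UMI. Again the progenitor-like interval stood above the others. In somatic cells it followed another cell type, the contractile peritubular myoid-like cells, at 168.8 CPM (140.5 to 201.1) with a UMI in 57.4% of cells. Stromal-like cells had 24.97 CPM and Xcl1-led cells 24.2 CPM, with intervals that overlap. Sertoli-like cells, where Ddit4 was highest, had 4 Fbxo32 UMIs in 255 cells (1.74 CPM). Macrophage-like cells had 0, with an exact upper limit of 7.15 CPM.

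In numbers, Ddit4 was 5.11-fold higher in progenitor-like than in SSC-like cells, a log2 ratio of 2.35 (1.83 to 2.90), and Fbxo32 was 3.09-fold higher, a log2 ratio of 1.63 (1.06 to 2.22). These were the only members past a 2-fold ratio in this comparison, both upward, where 1.18% of the 7025 genes with enough UMIs were at least 2-fold higher and 4.11% at least 2-fold lower. The median log2 ratio was 0.53 over the members and -0.07 over all those genes. Ranked by progenitor-like over all other germ cells, Ddit4 had rank 3 and Fbxo32 rank 5 of 5699 eligible genes, a pattern that was known when the members were chosen. Clustering that left the 10 members out of the variable genes gave log2 ratios of 2.19 for Ddit4 and 1.56 for Fbxo32. With clusters formed on one random part of the UMIs and levels read from the other, the values were 2.17 (1.29 to 3.16) and 1.30 (0.43 to 2.24). Leaving out the hemoglobin-rich barcode gave 2.31 and 1.58. The UMIs were spread over cells, since no progenitor-like cell held more than 7 Ddit4 UMIs or 6 Fbxo32 UMIs.

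Free RNA from somatic cells was looked at through the marker lists of the cells where each gene was highest. All 7 Sertoli markers had UMIs in each germ cell class, and their summed level reached 8788 CPM in Sertoli-like cells but 108.4 CPM in the SSC-like class, 92.7 CPM in the progenitor-like class and 108.8 CPM among differentiating-like cells. Of the 5 peritubular myoid markers, 4 had UMIs in each of these classes, with Cnn1 at 0 in SSC-like cells and Actg2 at 0 in the others. Their summed level was 21.3, 15.9 and 21.0 CPM against 8777 CPM in peritubular myoid-like cells. The part of free somatic RNA in the levels of Ddit4 and Fbxo32 was not tested. Red blood cell genes did move with the class, at 7107 CPM in progenitor-like and 95.7 CPM in SSC-like cells, and the ratios without the barcode that carried them are given above. Mitochondrial genes took 7.19% of the UMIs of progenitor-like cells and 7.05% of those of SSC-like cells.

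**Figure D2:**
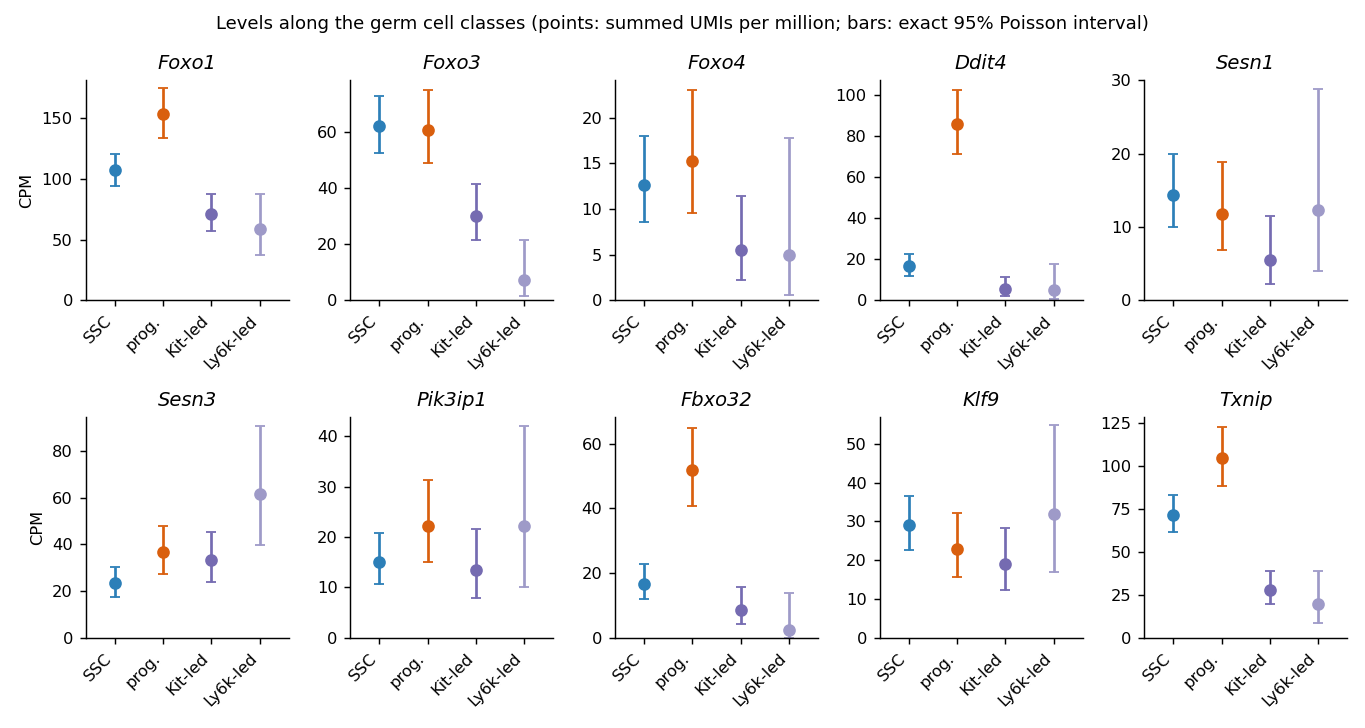
Levels of the 10 genes in the germ cell classes. Each panel is a gene, the vertical axis is CPM from 0, the points are SSC-like, progenitor-like (prog.), Kit-led and Ly6k-led differentiating-like cells, and the bars are exact 95% Poisson intervals. Ddit4 and Fbxo32 peak in progenitor-like cells, Foxo3 is at 62.2 and 60.8 CPM in both undifferentiated classes, and Sesn3 is highest at 61.5 CPM in the Ly6k-led cluster.

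Foxo1, the member of the transcription factor family best known from spermatogonia, was higher in the SSC-like, progenitor-like, Kit-led and Ly6k-led cells than in the somatic classes. The 62 germ cells of the shallow cluster, which are also counted in those classes, had 25.7 CPM (11.1 to 50.6), level with Sertoli-like cells. The level of Foxo1 was 107.1 CPM in SSC-like cells (94.6 to 120.9), 153.5 CPM in progenitor-like cells (134.0 to 175.1), 71.6 CPM in the Kit-led cluster (57.6 to 88.0) and 59.1 CPM in the Ly6k-led cluster (37.9 to 87.9). Somatic classes were lower. Macrophage-like cells had 9.69 CPM of Foxo1, peritubular myoid-like cells 14.9, stromal-like cells 25.6 and Sertoli-like cells 26.1. The 26 Xcl1-led cells held 0 Foxo1 UMIs, for which the exact Poisson interval reaches 22.4 CPM. Over all germ cells Foxo1 was 4.89-fold higher than over all somatic cells, a log2 ratio of 2.29 (2.0 to 2.59). A limit of 5% on mitochondrial UMIs gave 0.99 (0.17 to 1.75). That limit kept 67 germ cell-like cells at a median of 5310 UMIs per cell, so its value describes fewer and shallower germ cells. Within germ cells Foxo1 was higher in progenitor-like than in SSC-like cells by a log2 ratio of 0.52 (0.25 to 0.78), under the 2-fold line. It was higher in undifferentiated than in differentiating-like cells by 0.86 (0.56 to 1.17). Thinning cells to 5000 UMIs moved the last value to 1.63 (0.94 to 2.39). Cells below that depth were left out, 36 of 133 differentiating-like and 9 of 191 undifferentiated cells. The effects of thinning and of leaving cells out cannot be told apart in that value. The annotation places the gene Gm38034 on the same strand in overlap with Foxo1. Reads that fit both genes could affect the Foxo1 count, which was not tested.

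Foxo3, in contrast to Foxo1, had like levels in both undifferentiated classes. It stood at 62.2 CPM in SSC-like cells (52.7 to 72.9) and 60.8 CPM in progenitor-like cells (48.8 to 75.0), a log2 ratio of -0.03 (-0.43 to 0.36), so that any difference between these classes was within counting error. The Kit-led cluster had 30.2 CPM (21.4 to 41.5) and the Ly6k-led cluster 7.39 CPM (1.52 to 21.6), a log2 ratio of Ly6k-led over Kit-led cells of -2.03 (-4.37 to -0.38) that rests on 3 UMIs. Undifferentiated over differentiating-like cells gave a log2 ratio of 1.32 (0.84 to 1.84). Among somatic cells Sertoli-like cells were highest at 79.3 CPM (68.2 to 91.7), and macrophage-like, stromal-like, Xcl1-led and peritubular myoid-like cells lay between 23.0 and 32.9 CPM with overlapping intervals. Foxo4, the third factor, was sparse everywhere, with 12.7 CPM in the SSC-like and 15.2 CPM in the progenitor-like class, 5.57 CPM in Kit-led and 4.92 CPM in Ly6k-led cells. Undifferentiated over differentiating-like cells had a log2 ratio of 1.33 (0.30 to 2.54) for Foxo4, from 53 and 9 UMIs.

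The sestrins, which restrain mTORC1, differed from Ddit4 and from each other. Sesn1 was higher in somatic cells, at 93.0 CPM in macrophage-like cells (68.6 to 123.3) and between 23.0 and 30.3 CPM in the other somatic classes, against 14.3 CPM in the SSC-like and 11.8 CPM in the progenitor-like class, 5.57 CPM in Kit-led and 12.3 CPM in Ly6k-led cells. Germ over somatic cells gave a log2 ratio of -1.43 (-1.87 to -1.0), or -0.84 with germ cells taken as those with a UMI of Ddx4 or Dazl. The latter also took in clusters of 39 and 33 cells that could not be named as a germ cell stage. Gm14226, a leading gene of a Sertoli-like cluster, led the first, and the stromal marker Tcf21 led the second. The intervals of the germ cell classes of Sesn1 overlapped. Sesn3 had a lean opposite to that of Sesn1, with a germ over somatic log2 ratio of 0.88 (0.51 to 1.25). Sesn3 had 1.63 (0.90 to 2.33) with the limit of 5% on mitochondrial UMIs, which left fewer and shallower germ cells. Its level was 23.3 CPM in SSC-like cells (17.7 to 30.2), 36.6 CPM in progenitor-like cells (27.5 to 47.9), 33.4 CPM in the Kit-led cluster (24.1 to 45.1) and 61.5 CPM in the Ly6k-led cluster (39.8 to 90.9). It was the one member with a lower level in undifferentiated than in differentiating-like cells beyond counting error, at a log2 ratio of -0.51 (-0.96 to -0.05). With cells thinned to 5000 UMIs and shallower cells left out, the ratio of Sesn3 became -1.23 (-2.15 to -0.32). Between progenitor-like and SSC-like cells its log2 ratio was 0.65 (0.09 to 1.22).

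Pik3ip1, the inhibitor of PI3K, had nearly the same level along the germ line, at 15.1 CPM in the SSC-like and 22.1 CPM in the progenitor-like class, 13.5 CPM in Kit-led and 22.2 CPM in Ly6k-led cells, all with overlapping intervals. Sertoli-like cells had the most, 55.8 CPM (46.5 to 66.3), and macrophage-like cells had 0 UMIs. Its germ over somatic log2 ratio was -1.02 (-1.39 to -0.66). Klf9 had a germ over somatic log2 ratio of 0.02 (-0.33 to 0.37). Its level was 29.0 CPM in the SSC-like and 22.8 CPM in the progenitor-like class, 19.1 CPM in Kit-led and 32.0 CPM in Ly6k-led cells, with overlapping intervals, and macrophage-like cells had 0 UMIs.

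Txnip was highest in undifferentiated spermatogonia within the germ line and higher still in stromal-like cells. It was at 71.6 CPM in SSC-like cells (61.4 to 83.0), 104.4 CPM in progenitor-like cells (88.4 to 122.5), 27.8 CPM in the Kit-led cluster (19.4 to 38.7) and 19.7 CPM in the Ly6k-led cluster (8.50 to 38.8). Stromal-like cells had more than any germ cell class, 156.5 CPM (138.0 to 176.9), followed by macrophage-like (126.0 CPM), Xcl1-led (121.2 CPM) and peritubular myoid-like cells (105.3 CPM), whose intervals overlap, and then by Sertoli-like cells (55.8 CPM). Undifferentiated over differentiating-like cells gave a log2 ratio of 1.70 (1.23 to 2.19). The ratio of progenitor-like over SSC-like cells, 0.54 (0.22 to 0.87), depended on the processing. It was 0.04 (-0.29 to 0.37) when the vst method picked the variable genes. Over the 17 alternatives with a value it ran from 0.04 to 0.93, and 14 lay inside the interval of the reported value. Arrdc4, which like Txnip is a target of the glucose-sensing factor MondoA, had a log2 ratio of 0.47 (0.04 to 0.89) in the same comparison.

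Set against the differentiating-like cells, 5 of the 10 members were at least 2-fold higher in undifferentiated spermatogonia and 0 were 2-fold lower, where 7.65% of 8219 genes were higher and 5.65% lower by that much. These were Ddit4 with a log2 ratio of 2.97 (2.01 to 4.12), Fbxo32 with 2.05 (1.19 to 3.04), and Txnip, Foxo4 and Foxo3. For Ddit4 the values behind this were 165 UMIs against 9, and its 5.41 CPM in differentiating-like cells lay between those of macrophage-like and peritubular myoid-like cells. The differentiating-like class was shallower, at a median of 10878 UMIs per cell against 20155. In germ against somatic cells 1 member, Foxo1, was at least 2-fold higher and 3 members, Ddit4, Sesn1 and Pik3ip1, were at least 2-fold lower, where 24.0% and 26.7% of 11027 genes were. The members' median log2 ratio was 1.11 in the first and -0.24 in the second of these comparisons, against -0.10 and 0.07 over all genes.

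**Figure D3:**
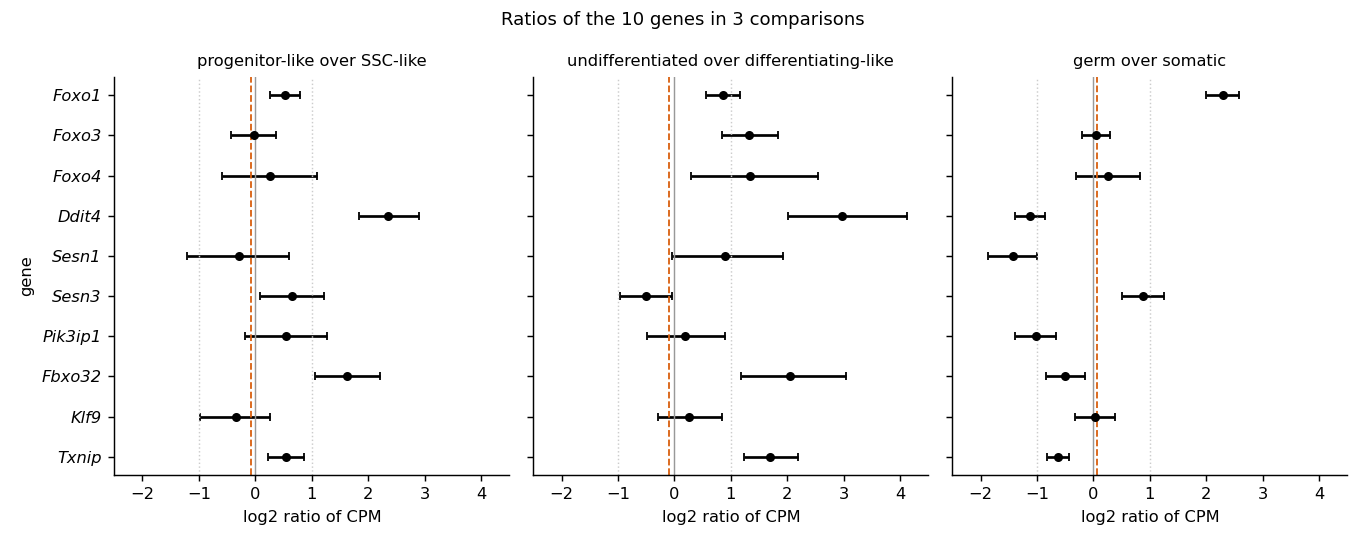
Log2 ratios of the CPM of the 10 genes in 3 comparisons of classes. Points are ratios, bars are exact 95% intervals, the dashed line is the median over all genes with enough UMIs, and dotted lines mark 2-fold. Ddit4 and Fbxo32 lie beyond 2-fold for progenitor-like over SSC-like cells at 2.35 and 1.63, and for germ over somatic cells Foxo1 lies beyond 2-fold on the higher side at 2.29 and Ddit4, Sesn1 and Pik3ip1 on the lower side at -1.13, -1.43 and -1.02.

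Detection of Ddit4 and Fbxo32 in the same cell was then counted in the 191 undifferentiated spermatogonia. Both genes had a UMI in 35 cells (18.3%, 13.1 to 24.6%), Ddit4 without Fbxo32 in 36, Fbxo32 without Ddit4 in 33 and neither in 87. The product of the separate shares, 37.2% for Ddit4 and 35.6% for Fbxo32, would place both in 25.3 cells, so they were found together in more cells than that product. Fbxo32 was detected in 49.3% of cells with Ddit4 (37.2 to 61.4%) and in 27.5% of cells without it (19.7 to 36.4%). The odds ratio was 2.56, or 1.36 on the log2 scale with an exact interval of 0.41 to 2.31. Joint detection was not particular to this pair at full depth. The log2 odds ratio was 1.48 (0.38 to 2.66) for Fbxo32 with Txnip and 1.43 (0.33 to 2.61) for Fbxo32 with Foxo3.

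Much of this joint detection lay in 1 class. Progenitor-like cells held 28 of the 35 cells with both genes, 35.4% of the class against 24.5 cells from the product of shares, and SSC-like cells held 7, against 5.80. The log2 odds ratio was 1.08 in progenitor-like cells (-0.37 to 2.53) and 0.48 in SSC-like cells (-1.23 to 2.06). At 1 or more UMIs of each gene, the departure from the product was thus inside counting error within either class. Differentiating-like cells had both genes in 2 of 133 cells. In Sertoli-like cells, where Ddit4 was high and Fbxo32 scarce, both were found in 3 of 255 cells, and in peritubular myoid-like cells, where the reverse held, in 6 of 94.

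The amount of Ddit4 in a cell went with Fbxo32 as well. Fbxo32 was detected in 27.5% of the 120 undifferentiated cells with 0 Ddit4 UMIs, in 37.0% of the 46 cells with 1 to 2 (23.2 to 52.5%) and in 72.0% of the 25 cells with 3 or more (50.6 to 87.9%). Its level in these bins was 21.0, 28.3 and 71.3 CPM, and their median depths were 19748, 20736.5 and 21166 UMIs per cell. The top bin was mostly progenitor-like, with 21 such cells and 4 SSC-like cells, while the bottom bin had 33 and 87. Neurog3, a transcription factor of cells leaving the stem cell state, had a UMI in 10.8%, 23.9% and 44.0% of cells of the bins, and Gfra1, the GDNF co-receptor of stem cells, in 57.5%, 39.1% and 24.0%. With at least 2 UMIs of each gene asked for, 16 cells had both and the log2 odds ratio was 3.13 (1.74 to 4.51). That value is over both classes together, and the odds ratio at this threshold was not computed within a class.

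Depth limits what co-detection can show. After thinning to 5000 UMIs, with 182 cells left, both genes were found in 6 cells (3.30%) against 2.86 from the product of shares. The log2 odds ratio of 1.61 had an interval of -0.23 to 3.27. In the same thinned cells it was 1.38 (-0.15 to 2.90) for Fbxo32 with Txnip and 0.23 (-1.43 to 1.76) for Fbxo32 with Foxo3. Split by depth into 3 parts, the log2 odds ratio was 0.19 in the shallowest 64 cells (-1.79 to 2.05), 2.15 in the middle 64 (0.44 to 3.89) and 1.25 in the deepest 63 (-0.58 to 3.06). With free RNA in mind, shares were also read in somatic classes. A Ddit4 UMI was in 2.86% of macrophage-like (median depth 13010), 7.45% of peritubular myoid-like (7446) and 12.9% of stromal-like cells (8370.5). An Fbxo32 UMI was in 1.57% of Sertoli-like (8343) and 13.98% of stromal-like cells. SSC-like cells had 22.3% and 23.2% at 22293. Thinned to 5000 UMIs, Ddit4 was in 7.27% of SSC-like, 6.98% of stromal-like, 5.56% of peritubular myoid-like and 0% of macrophage-like cells. Fbxo32 was then in 5.45% of SSC-like, 10.47% of stromal-like and 0.85% of Sertoli-like cells. The part of free RNA in the shares was not tested.

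**Figure D4:**
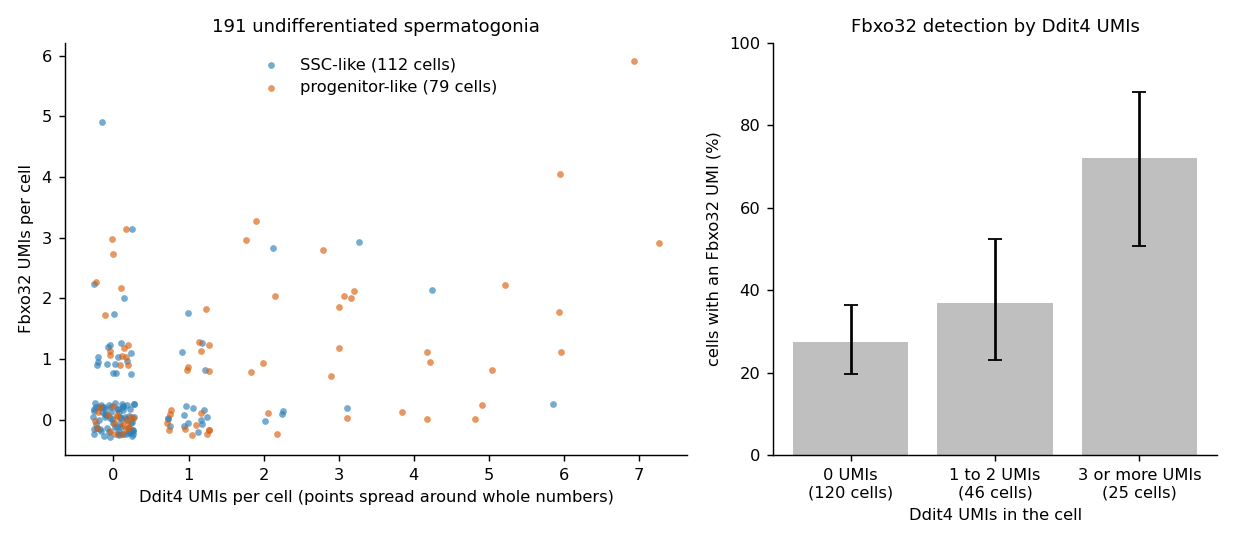
Ddit4 and Fbxo32 in 191 undifferentiated spermatogonia. Left, UMIs of Fbxo32 against UMIs of Ddit4 per cell, with points spread around whole numbers and coloured by class; right, the share of cells with an Fbxo32 UMI by the number of Ddit4 UMIs, with exact 95% binomial intervals. The share is 27.5% without Ddit4 and 72.0% with 3 or more Ddit4 UMIs.

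Across these 191 cells the correlation of log-normalized values was higher for Ddit4 with Fbxo32 than for any other pair of members, at a Pearson r of 0.33. The next pair was Txnip with Fbxo32 at 0.23, and the lowest was Sesn1 with Foxo1 at -0.13. Correlations of this size in sparse counts of cells that share 1 library are given as a description only, and within classes Ddit4 with Fbxo32 had 0.27 among progenitor-like and 0.08 among SSC-like cells. Of 6538 genes detected in 25% or more of the cells, those most like Ddit4 were Pfdn5 (0.42), Iah1 (0.42), Lgals2 (0.39), Ddx41 (0.37) and Rpl3 (0.36), and Fbxo32 came 10th. Those most like Fbxo32 were Faap20 (0.40), Bnc2 (0.36), Gas8 (0.35), Ubr4 (0.34) and Fam178b (0.33), and Ddit4 came 6th. Ddit4 itself correlated with the UMI total of the cell at -0.20.

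Undifferentiated spermatogonia were also split by a single marker gene, whatever their cluster. In the 35 cells with a Neurog3 UMI Ddit4 was at 92.4 CPM against 31.2 CPM in the 156 cells without, a log2 ratio of 1.57 (1.1 to 2.03), and Fbxo32 was at 51.8 against 24.9 CPM, a log2 ratio of 1.06 (0.45 to 1.64). Median depths of these cells were 20155 and 20167.5 UMIs. Foxo1 was higher in cells with Neurog3 as well, by a log2 ratio of 0.65 (0.34 to 0.94), and Foxo3 lower, by -0.55 (-1.13 to -0.01). Cells with a Gfra1 UMI (93 of 191, median depth 22215 UMIs against 19490.5) had 19.0 CPM of Ddit4 against 69.8 CPM in the others, a log2 ratio of -1.88 (-2.43 to -1.35), and 17.6 against 44.1 CPM of Fbxo32, a log2 ratio of -1.33 (-1.93 to -0.75). The other 8 members had intervals that include 0 in the Gfra1 split.

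The Gfra1 split held inside classes for Ddit4. Among SSC-like cells Ddit4 had a log2 ratio of -1.28 (-2.26 to -0.33) and Fbxo32 of -1.42 (-2.41 to -0.47) between cells with and without Gfra1. Among progenitor-like cells the ratio of Ddit4 was -1.29 (-2.03 to -0.61), and that of Fbxo32, -0.54 (-1.35 to 0.23), was within counting error. Foxo1 was lower with Gfra1 in progenitor-like cells too, at -0.58 (-1.03 to -0.14), and Txnip higher, at 0.56 (0.07 to 1.04). Among SSC-like cells both leaned the other way within counting error, Foxo1 at 0.28 (-0.10 to 0.68) and Txnip at -0.20 (-0.66 to 0.26). Many such intervals were read, and some would miss 0 by counting error alone. Gfra1 was not among the markers that named the classes, whereas Neurog3 was one of the progenitor markers. In the Neurog3 split Ddit4 had a log2 ratio of 0.70 (0.17 to 1.23) inside progenitor-like cells and 0.60 (-1.35 to 2.08) inside SSC-like cells, of which 7 had a Neurog3 UMI. Fbxo32 was within counting error in both, at 0.50 (-0.19 to 1.2) and -0.47 (-3.57 to 1.48).

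Proliferation genes were given the same treatment, because Mki67 and Top2a differ between the classes. Cells with a UMI of either gene (142 of 191, median depth 21999 UMIs against 17750) had less Ddit4, by a log2 ratio of -1.31 (-1.78 to -0.84), less Fbxo32, by -1.25 (-1.81 to -0.67), and less Txnip, by -0.66 (-1.02 to -0.30). That group holds 106 of the 112 SSC-like cells and 36 of the 79 progenitor-like cells. Inside the progenitor-like class the ratio was 0.14 (-0.39 to 0.68) for Ddit4 and -0.41 (-1.11 to 0.28) for Fbxo32, both within counting error. Inside the SSC-like class it was -2.5 (-3.69 to -1.08) for Ddit4 and -0.49 (-2.44 to 2.61) for Fbxo32, with only 6 cells without either gene. Those cells held 7 Ddit4 UMIs, 6 of them in 1 cell. The ratio of Ddit4 there rests largely on that cell, and its interval does not cover spread between cells. In progenitor-like cells Txnip stayed lower in cells with Mki67 or Top2a, at -0.62 (-1.11 to -0.14), and Foxo1 was higher, at 0.52 (0.12 to 0.93).

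**Figure D5:**
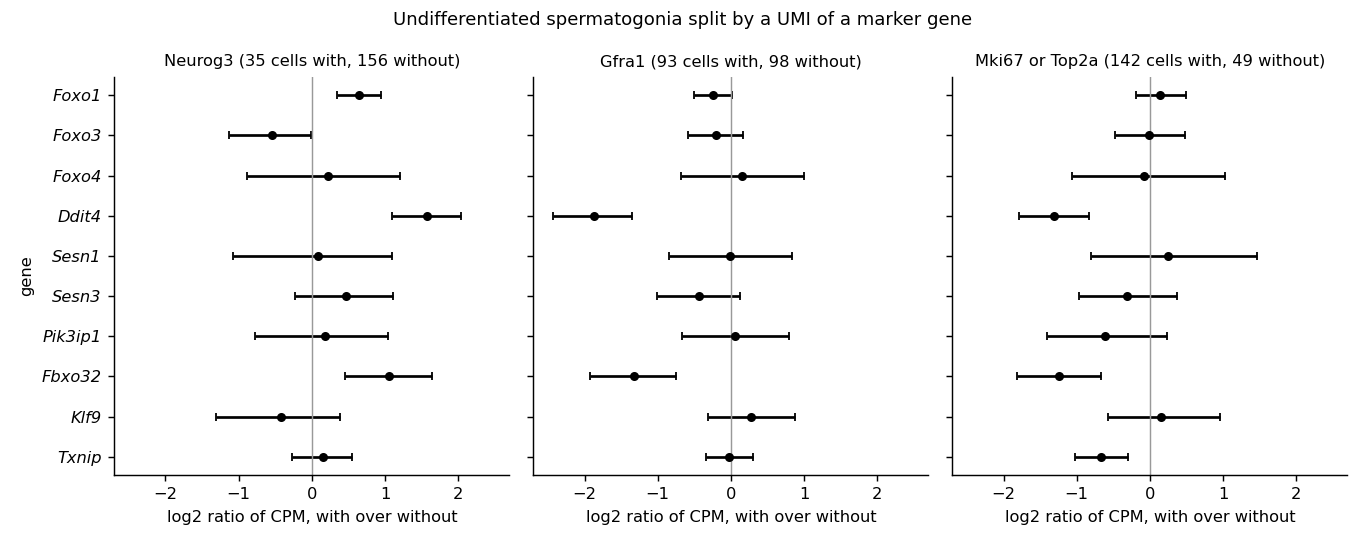
Undifferentiated spermatogonia split by a UMI of Neurog3, of Gfra1, and of Mki67 or Top2a. Points are log2 ratios of CPM of cells with over cells without the marker, and bars are exact 95% intervals. Ddit4 is at 1.57, -1.88 and -1.31 in the 3 splits, and Fbxo32 at 1.06, -1.33 and -1.25.

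Other genes of the pathway were read between progenitor-like and SSC-like cells from lists of its parts. Of the 9 measured PI3K and AKT genes, 13 genes of mTORC1 and its regulators and 7 mTORC1 substrate genes, 0 were past 2-fold in either direction, with median log2 ratios of 0.17, -0.06 and 0.04. Over all measured genes 1.18% were at least 2-fold higher and 4.11% lower, so lists this short would hold few such genes at those shares. Igf1r, the growth factor receptor at the head of the pathway, was 0.51 (0.21 to 0.80). Mtor itself was 0.23 (-0.30 to 0.75), its activator Rheb -0.16 (-0.42 to 0.10), and Tsc2, through which DDIT4 acts, 0.12 (-0.49 to 0.70). Eif4ebp1, the translation repressor that mTORC1 inactivates, was 0.17 (0.00 to 0.34), and Rps6 was 0.36 (0.31 to 0.41).

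Other FOXO targets likewise stayed under 2-fold between these classes, 0 of 8 measured genes, with a median log2 ratio of 0.38. For this list and those below, the shares over all measured genes are again 1.18% higher and 4.11% lower. Bnip3, a mitophagy receptor, was 0.80 (0.37 to 1.23), the autophagy gene Map1lc3b 0.35 (0.24 to 0.46), the superoxide dismutase Sod2 0.43 (0.17 to 0.69), and Cited2 was lower, at -0.61 (-1.14 to -0.10). Ddit4 is also known as a gene induced by glucocorticoids, hypoxia, amino acid stress and p53, and lists for each were read in the same way. Glucocorticoid-induced genes had 0 of 7 past 2-fold, with Tsc22d3 (GILZ) at 0.25 (0.07 to 0.42) and Fkbp5 at -0.43 (-1.11 to 0.22). Hypoxia-induced genes had 0 of 6, with Pdk1 at 0.61 (0.36 to 0.86) and Ankrd37 at -0.87 (-1.66 to -0.14). Of 8 listed amino acid and stress genes 2 had enough UMIs, Atf4 at -0.31 (-0.75 to 0.11) and Ddit3 at 0.22 (-0.64 to 1.05). Trib3 of that list had too few. It was among the 10 leading genes of the progenitor-like cluster when the vst method picked the variable genes, but not in the main clustering. Among p53 targets 1 of 5 was past 2-fold, the cell cycle inhibitor Cdkn1a, which was lower in progenitor-like cells at 2.77 against 33.5 CPM, a log2 ratio of -3.60 (-5.51 to -2.19).

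Genes of the response to tissue dissociation were also listed, since they too respond to stress. None of the 4 measured was past 2-fold between progenitor-like and SSC-like cells, where 1.18% of all measured genes were higher and 4.11% lower. Egr1 was at -0.25 (-0.61 to 0.10) and Ier2 at -0.42 (-0.96 to 0.10), and the median of the 4 was -0.48. Between germ and somatic cells 7 of 8 were at least 2-fold lower in germ cells, where 26.7% of all measured genes were. Their median log2 ratio was -3.84, with Fos at -4.94 (-5.33 to -4.58). Ddit4 was lower in germ cells in that comparison too, but Sertoli-like cells held 328 of its 367 somatic UMIs. The other somatic classes had 18.3 CPM of Ddit4 or less, against 31.3 CPM over all germ cells. The part of dissociation in the level of Ddit4 was not tested.

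The same lists were read in undifferentiated over differentiating-like cells, where 7.65% of all genes were at least 2-fold higher and 5.65% lower. Igf1r was higher in undifferentiated spermatogonia by a log2 ratio of 1.37 (0.98 to 1.77), and the PI3K catalytic subunits Pik3ca and Pik3cd by 1.37 (0.66 to 2.16) and 2.36 (1.06 to 4.03), 3 of the 10 PI3K and AKT genes measured, with 0 lower. Genes of mTORC1 and its regulators, 0 of 18, and mTORC1 substrates, 0 of 7, stayed within 2-fold, with Mtor at -0.69 (-1.09 to -0.29) and Rheb at -0.80 (-0.99 to -0.61). Of 8 other FOXO targets, Cited2 at 3.52 (2.37 to 4.99) and Gabarapl1 at 1.24 (0.73 to 1.78) were higher, while Bnip3 at -1.60 (-1.88 to -1.32) and Gadd45a at -1.11 (-1.60 to -0.61) were lower. Among glucocorticoid-induced genes 1 of 9 was past 2-fold, Zbtb16 at 1.78 (1.42 to 2.17), which is also a germ cell marker of the naming lists. Hypoxia-induced Pdk1 at 2.87 (2.36 to 3.43) and Slc2a1 at 1.54 (0.57 to 2.66) were higher, and Bnip3, on that list too, was lower.

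Of the other genes in these lists, Asns of the amino acid response was lower in undifferentiated cells at -1.13 (-1.75 to -0.51), and p53 targets were divided, with Cdkn1a at 1.03 (0.29 to 1.85) and Ccng1 and Phlda3 at -2.01 (-2.32 to -1.70) and -3.01 (-3.60 to -2.45). Egr1 at 3.12 (2.37 to 3.97) and Ier2 at 1.12 (0.53 to 1.74) were higher among 5 dissociation genes measured. Ddit4l, the paralog of Ddit4 with the same action on mTORC1, was nearly absent from germ cells with 12 UMIs in all, against 656 in somatic cells, a log2 ratio of -5.82 (-6.78 to -5.01). The third sestrin, Sesn2, had 10.8 CPM in germ and 9.14 CPM in somatic cells, a log2 ratio of 0.24 (-0.33 to 0.82).

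In the GENCODE annotation of GRCm38, Ddit4 lies on the minus strand of chromosome 10 from 59949669 to 59951834, and Fbxo32 on the minus strand of chromosome 15 from 58175879 to 58214932. Foxo1 spans 52268336 to 52353221 and Txnip 96557957 to 96561883, both on the plus strand of chromosome 3. Foxo3 (42181841 to 42276755, minus strand) and Sesn1 (41809935 to 41908424, plus strand) are also on chromosome 10, and Foxo4 is on X, Sesn3 on chromosome 9, Pik3ip1 on chromosome 11 and Klf9 on chromosome 19. Same-strand genes overlap 3 of the 10, namely Foxo1, Sesn1 (9930024M15Rik) and Klf9 (Mir1192), and none overlaps Ddit4 or Fbxo32 on the same strand.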

How the data were processed

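Cells of 1 wild-type library were sequenced by Chromium 3′ single-cell RNA-seq. The authors aligned reads to mm10 and made the deposited counts, a table of UMIs per gene and barcode, with Cell Ranger 2.1.0, per the labels and the study's methods. The table held 970 barcodes and 11358045 UMIs, from 2655 to 44915 per barcode (median 9115). Kept were 920 barcodes that had 500 genes or more, a mitochondrial share below 10% and no call as a doublet. Scrublet (scanpy 1.11.5, expected rate 0.01) called 4 doublets, under 0.5% of barcodes, so that doublets were largely not removed.

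Cells, and then germ cells alone, were clustered in Seurat 5.3.0 (R 4.3.3) with 14 principal components and a resolution of 0.5. A cluster was named by the marker list with the highest mean difference from other cells, given at least 3 of its markers in 10% of cells. The red blood cell list was left out of the check for markers of another class.

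Levels were summed UMIs per 1000000. Intervals are exact Poisson for levels, exact conditional binomial for ratios, exact binomial for shares and exact conditional for odds ratios (95%, Python 3.11.15, scipy 1.17.1), and cover counting error only. With 1 library no test was run. Counts of genes past 2-fold used genes with at least 50 UMIs in the cells compared. For 0 UMIs the upper limit is that of the same Poisson interval. Interval coverage and folds were checked on simulated Poisson counts. These had no spread between cells, so the check does not show coverage where UMIs gather in a few cells.

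The members, the gene lists and the markers were chosen with earlier results of these data known. Genes named beside the members came from these lists, or were the 5 most correlated with Ddit4 or Fbxo32. There were 18 alternatives planned, and 2 were chosen after seeing the data. A gene of the PI3K and AKT list is not reported here by name.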

Additional observations from a re-analysis of the deposited data

How the results depend on the processing

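Across the alternatives the Ddit4 log2 ratio of progenitor-like over SSC-like cells ran from 2.17 to 2.77 and that of undifferentiated over differentiating-like cells from 2.20 to 3.07, and no called ratio of a member turned its direction in the alternatives run. The Fbxo32 ratio of progenitor-like over SSC-like cells ran from 1.30 to 2.97, with 2.97 at a clustering resolution of 1.2. At that resolution the classes held other sets of cells, with clusters of 77 and 61 cells named progenitor-like and 45 cells named SSC-like. The cause of the larger ratio was not tested. The share of undifferentiated spermatogonia with both genes was 9.89% when UMIs were split at random and 3.30% with cells thinned to 5000 UMIs, settings that hold fewer UMIs per cell. The log2 odds ratio was 3.13 when at least 2 UMIs of each gene were asked for. The other 80 values of these 5 results lay inside the interval of the reported value, as did 464 values of the remaining ratios, with 15 outside. A limit of 5% on mitochondrial UMIs moved the germ over somatic log2 ratio of Foxo1 to 0.99 and that of Fbxo32 to -2.34. It kept 67 germ cell-like cells at a median of 5310 UMIs per cell, against 324 at 18216.5 in the main setting. With that limit or a resolution of 0.3 no cluster could be named progenitor-like or SSC-like, and the comparisons within germ cells have no value there. Leaving out the cell with the most Ddit4 UMIs, or the shallow germ cells, was chosen after seeing the data. No paired analysis was possible because no other library was analysed here. Depth limits sparse genes most: Foxo4 had 112 UMIs over all kept cells.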
